A study of Mus musculus with 10 samples.

Results

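The Wnt module described here holds 38 genes, 19 Wnt ligands, 10 Frizzled receptors, the coreceptors Lrp5 and Lrp6, and 7 secreted inhibitors of the Dickkopf and Sfrp families, out of 20661 autosomal protein-coding genes of the RefSeq annotation. The genes were listed by name. For each one, the CpG cytosines within 1000 bp of either annotated end, and those inside the gene beyond 1000 bp from both ends (the body), were taken separately when at least 3 had been measured. The method, reduced representation bisulfite sequencing (RRBS), reads DNA rich in CpGs after a restriction digest, with bisulfite turning only unmethylated cytosines into bases read as T. It was applied to mouse embryos of embryonic day 7.5, 5 of an arsenic group and 5 of a control group, all from a second experiment. The deposited counts carry the label F2emb, taken here to mean F2 embryos, and this label does not say which generation was exposed. Dose, timing of the arsenic, strain and embryo sex were stated in none of the sources used here. The table of read counts numbers its 10 libraries from 1 to 10 and ties none of them to an embryo or a group. A comparison of arsenic with control embryos was therefore not made, and all values below describe the 10 libraries together.

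Wnt ligands are lipid-modified secreted proteins that bind Frizzled receptors. With the coreceptors Lrp5 and Lrp6, this binding stabilises beta-catenin, which activates target genes with TCF and LEF factors, while other Wnt signals act without beta-catenin. Dickkopf proteins such as Dkk1 and Dkk2 act at the coreceptors, and Sfrp proteins bind Wnt ligands outside the cell. In the gastrulating mouse embryo Wnt3 is needed to form the primitive streak, and Wnt3a is needed for the mesoderm of the trunk and tail.

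A methylation level is the mean over the cytosines of a region of methylated reads over coverage. It is given pooled, with the reads of the 10 libraries summed at each cytosine, and as the lowest, median and highest library. The table held 2391795 cytosines, with a coverage of 10 or more throughout. Of these, 5548 (0.232%) lay in the module, with 2370230 reads in all and a median coverage per cytosine of 28 to 44 reads over the libraries. Over the whole table, summed coverage was between 94583116 and 127102232 reads per library. The mean autosomal level was 41.6%, from 40.3% to 42.8% over the libraries, and no pair of libraries held identical counts. Whole embryos mix tissues, so a level between 0 and 100% cannot be told apart as methylation in some of the cells or on some of the alleles. The strand, needed to tell a gene's start from its far end, was given for 25 of the 38 genes. The ends of the other 13 are called the lower and the higher end by coordinate. Of the 38 genes, 37 had a measured end, 10 had both, and 32 had a measured body. Sfrp5, a secreted inhibitor, had no region with 3 cytosines.

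The promoters of 6 starts are shown because they include receptors and ligands, with many and with few CpGs, and the highest promoter level measured. Each is the 250 bases before a start listed by RefSeq (GRCm38.p6, the coordinates of mm10), on the strand of the gene. Capitals mark the CpGs that the table measures on at least 1 strand.
Fzd7: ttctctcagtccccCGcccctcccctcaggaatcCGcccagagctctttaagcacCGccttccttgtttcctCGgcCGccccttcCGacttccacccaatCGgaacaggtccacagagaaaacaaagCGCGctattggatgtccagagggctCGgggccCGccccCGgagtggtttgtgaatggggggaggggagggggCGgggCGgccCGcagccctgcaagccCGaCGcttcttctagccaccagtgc
Fzd10: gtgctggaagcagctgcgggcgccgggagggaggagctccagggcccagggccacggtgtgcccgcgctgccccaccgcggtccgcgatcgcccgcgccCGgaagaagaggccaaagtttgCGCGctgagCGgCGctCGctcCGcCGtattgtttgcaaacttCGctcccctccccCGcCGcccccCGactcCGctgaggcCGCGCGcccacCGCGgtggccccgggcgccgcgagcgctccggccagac
Wnt3: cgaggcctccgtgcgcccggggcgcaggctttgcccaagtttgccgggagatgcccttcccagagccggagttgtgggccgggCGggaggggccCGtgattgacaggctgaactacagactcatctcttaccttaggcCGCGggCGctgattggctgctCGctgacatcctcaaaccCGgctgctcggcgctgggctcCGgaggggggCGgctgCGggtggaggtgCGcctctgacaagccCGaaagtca
Wnt5b, start nearest the 5' end: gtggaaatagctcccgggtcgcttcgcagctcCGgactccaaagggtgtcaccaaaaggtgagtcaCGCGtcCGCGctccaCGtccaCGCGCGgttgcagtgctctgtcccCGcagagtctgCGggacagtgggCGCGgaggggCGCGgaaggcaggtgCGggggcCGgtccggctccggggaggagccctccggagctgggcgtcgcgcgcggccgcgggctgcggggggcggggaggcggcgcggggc
Wnt5b, start furthest downstream: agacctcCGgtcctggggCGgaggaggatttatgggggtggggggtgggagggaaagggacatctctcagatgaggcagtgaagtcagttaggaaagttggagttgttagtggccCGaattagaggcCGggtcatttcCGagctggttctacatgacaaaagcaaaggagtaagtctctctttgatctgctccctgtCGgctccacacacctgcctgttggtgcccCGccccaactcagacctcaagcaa
Wnt2: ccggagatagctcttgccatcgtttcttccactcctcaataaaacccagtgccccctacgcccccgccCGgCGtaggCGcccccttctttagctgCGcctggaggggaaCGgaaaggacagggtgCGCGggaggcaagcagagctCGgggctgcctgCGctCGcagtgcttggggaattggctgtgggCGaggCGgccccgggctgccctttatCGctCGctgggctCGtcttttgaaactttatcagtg
The Fzd7 promoter (chr1:59481897-59482146, plus strand) has 17 CpGs, all measured, at 2.32%. Fzd10 (chr5:128600856-128601105, plus strand) has 37 CpGs, of which 18 were measured, at 0.706%. Wnt3 (chr11:103773925-103774174, plus strand) has 22, of which 12 were measured, at 2.67%. These 3 promoters, of 2 receptors and of the ligand needed to form the streak, were thus all nearly unmethylated. The upstream Wnt5b promoter (chr6:119544348-119544597, minus strand) has 35 CpGs, of which 17 were measured, at 3.67%, with 1.90% in the lowest and 6.95% in the highest library. The downstream one (chr6:119449387-119449636, minus strand) has 7, all measured, at 12.9%, from 7.55% to 15.3%. These 2 ranges do not overlap, and the promoter with fewer CpGs was the more methylated. A further listed Wnt5b start lies between them and had no measured cytosine in this window. Wnt2 (chr6:18030446-18030695, minus strand) has 20 CpGs, of which 15 were measured, at 8.57%, from 4.91% to 15.6%.

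RefSeq listed 28 promoters for 25 of the genes, counting the 250 bases before and the 50 after each start. In them, all 320 measured cytosines fell on a C of the listed sequence or of its complement. The letters CCGG, the site cut by MspI, an enzyme widely used for RRBS, stood in 25 of these 28 windows (89.3%), against 52.8% of the 32851 promoters listed for all genes. The core letters CTTTGA of a TCF and LEF motif, searched on both strands and not overlapping CCGG, stood in 4 of the 28 (14.3%), against 16.003% of all promoters. The windows of the Wnt5b start furthest downstream, Wnt11, Fzd1 and Dkk1 held them.

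The starts of the module were little methylated. All 21 starts with a known strand and at least 3 cytosines were under 20%, a level that 82.5% of starts had among all protein-coding genes, and 17 were under 10%, against a background of 74.7%. With a coverage minimum of 20, and also with windows of 500 bp, 19 of 20 starts were under 20%. Their median was 4.08% (3.24% in the lowest and 5.18% in the highest library), against 2.40% over all protein-coding genes. The low starts are thus mostly what starts in general had, and the typical start of the module was not lower than theirs. At the end with more measured cytosines, which needs no strand, 31 of 37 genes were under 20%, against a background of 75.4%, with a median of 6.43% in the module and 3.24% over all genes. This end can be the far end, as in Wnt6, Wnt8b and Wnt16.

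**Figure D1:**
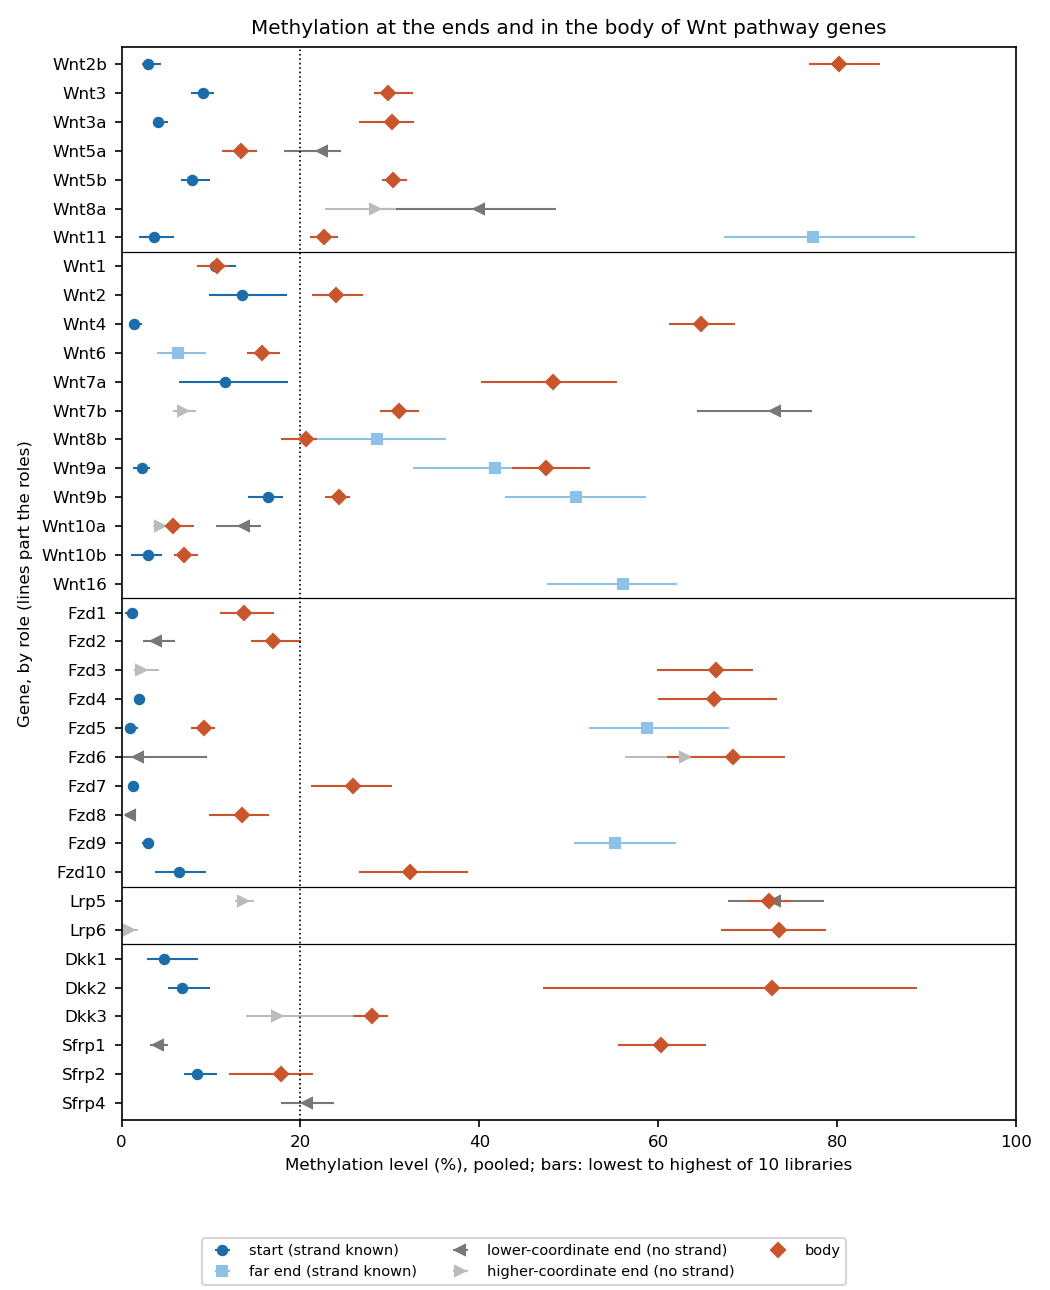
Methylation level (x axis, %) at the start, the far end and the body of each gene, with lower and higher ends where no strand was given. Symbols are pooled levels, bars run from the lowest to the highest of 10 libraries, and the dotted line is at 20%. All 21 starts lie left of the line, and bodies spread from 5.79% in Wnt10a to 80.2% in Wnt2b.

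Among the streak ligands, those expressed in or beside the primitive streak by textbook knowledge, Wnt3 (chromosome 11, 103774175 to 103818021) had the highest pooled level at the span start. It was 7.81% in the lowest library, 9.001% at the median and 10.4% in the highest, over 115 cytosines and 54069 reads. Of these reads 8.69% were methylated (Wilson 95% interval 8.46% to 8.93%), an interval that covers counting error alone and understates it, because 1 read is counted at each of its CpGs. Within this window single cytosines ran from 0.350% to 46.7%. The 33 cytosines in the 500 bp before the start had a median of 1.84%, the 37 in the 500 bp after it 11.4%, and the 18 in the next 500 bp 17.98%. Levels were thus lower before the start than in the kilobase after it. Wnt3a (chromosome 11, 59248036 to 59290751) had 3.56% in the lowest library, 3.85% at the median and 5.18% in the highest, over 89 cytosines, all of which were under 20%. Its range lies wholly below that of Wnt3.

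Wnt5b (chromosome 6, 119432531 to 119544824), a ligand of mostly beta-catenin-independent signalling, had 6.68%, 7.95% and 9.88% as lowest, median and highest library at its span start. This range overlaps that of Wnt3, and Wnt5b was the higher in 3 of 10 libraries. The start that RefSeq lists lies inside the span. Counted from there, its 6 cytosines between 1000 and 500 bp upstream had a median of 53.2%, against 1.23% over the 42 in the first 500 bp of the gene. Wnt2b (chromosome 3, 104944805 to 104961709) had 2.28%, 2.95% and 4.41%, and Wnt11 (chromosome 7, 98835084 to 98854747) had 1.95%, 3.53% and 5.89%. Both lay below the range of Wnt3, and their ranges overlap each other. Wnt11 has a further listed start inside the gene, whose promoter was at 3.35% over 18 cytosines, so both of its starts were low.

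For Wnt5a and Wnt8a no strand was given, and neither had a measured end as low as the starts above. Wnt5a (chromosome 14, 28504543 to 28527448), which drives cell movements and outgrowth, had 18.2%, 22.5% and 24.5% as lowest, median and highest library at its lower end, over 35 cytosines. Of these, 18 were under 20%, so the window was split between low and high cytosines. The longest unbroken run of Wnt5a cytosines under 20% began inside this window (28504898 to 28506527). It held 56 cytosines at a mean of 4.72%. Wnt8a (chromosome 18, 34542327 to 34548061) was at 28.4% over 35 cytosines at its higher end, from 22.7% to 30.7%, and at 39.9% over 9 cytosines at its lower end, from 29.4% to 48.6%. No library had an end of Wnt8a under 20%.

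Of the later ligands, which act in organs formed after this stage, Wnt4 had the lowest level at the span start. Wnt4 (chromosome 4, 137277635 to 137299501), a ligand of kidney and gonad development, had 0.824%, 1.22% and 2.24% as lowest, median and highest library. Wnt9a was close, with 1.297%, 2.10% and 3.21%, and Wnt10b had 1.03%, 2.89% and 4.57% over 8 cytosines. These 3 ranges overlap at the span starts. Wnt1 (chromosome 15, 98789857 to 98793830), a ligand of the midbrain and its border with the hindbrain, had 8.405%, 10.4% and 12.8%. Wnt7a (chromosome 6, 91363981 to 91411353), a ligand of limb and reproductive tract patterning, had 6.40%, 11.4% and 18.6% over 14 cytosines, at a mean coverage of 12.2 to 36.2 reads over the libraries. Wnt2 (chromosome 6, 17985474 to 18032772) had 9.73%, 12.4% and 18.5% over 15 cytosines. The ranges of Wnt1, Wnt7a and Wnt2 overlap one another and lie above those of Wnt4, Wnt9a and Wnt10b.

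Wnt9b (chromosome 11, 103727362 to 103775272), a ligand of kidney tubule formation, had the highest start, with 14.1%, 16.1% and 18.1% as lowest, median and highest library. Its annotated span reaches into Wnt3, which is transcribed the other way, and 43 of the 46 cytosines of this start also belong to the start of Wnt3. At the start that the RefSeq promoter table lists for Wnt9b, inside the span, the level was 2.98% over 57 cytosines, from 1.98% to 3.90%. Wnt2, Wnt6 and Wnt10b also have their listed starts inside the span. There Wnt2 was at 8.37% over 58 cytosines, from 5.90% to 13.0%, and Wnt6 at 1.15% over 22 cytosines, from 0 to 2.86%. The library of Wnt6 at 0 allows a level of up to 0.831%, from 3 counts of its reads. This limit is too low, because 1 read is counted at each of its CpGs. The pooled level of Wnt6 there was below the 1.38% of Wnt4. Wnt10b was at 5.23% over 12 cytosines, from 3.31% to 5.998%, above the ranges of Wnt4 and Wnt9a. The listed starts of further genes gave 6.26% in Wnt5b, 2.19% in Wnt9a, 3.84% in Wnt11 and, among the inhibitors, 10.8% in Sfrp2.

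Streak ligands were set against later ligands by the median of their starts. With the span ends, 5 streak ligands had a median of 4.08% and 7 later ligands a median of 10.5%, a difference of -6.40 points. It was negative in 10 of 10 libraries, from -8.76 to -1.98 points. With the listed starts the medians were 4.08% over 5 streak ligands and 4.11% over 8 later ligands, a difference of -0.029 points that was negative in 4 of 10 libraries, from -0.39 to 2.34 points. With Wnt9b left out, the span ends gave -2.66 points. With Wnt3, Wnt3a and Wnt8a as the streak ligands and all others counted as later, they gave 0.83 points, Wnt8a having no start to enter. With the same 3 set against the 12 later ligands alone, of which 7 had a start, they gave -3.88 points, from -6.09 to 0.88 points over the libraries. A lower start of the streak ligands thus depended on which coordinate stood for the start and on how the ligands were divided. At the end with more cytosines, which brings in Wnt5a, Wnt8a and all the others, the medians were 7.92% over 7 streak ligands and 11.01% over 12 later ones. For Wnt6, Wnt8b and Wnt16, all later ligands, this end is the far end, so it is not a contrast of starts alone. Wnt9b enters it by the window that it shares with the start of Wnt3. In bodies the order was the other way, 30.03% over 6 streak ligands and 24.02% over 11 later ones, with streak ligands higher in 10 of 10 libraries. Bodies ran from 13.3% to 80.2% in streak ligands and from 5.79% to 64.8% in later ligands. The bodies of Wnt2, Wnt6 and Wnt9b, all later ligands, hold the windows of their own listed starts, at the low levels given above. Among streak ligands, the bodies of Wnt5b and Wnt11 hold further listed starts. The body contrast without these cytosines was not tested. At the end with more cytosines both sets span wide ranges, from 2.99% to 28.4% in streak ligands and from 1.38% to 56.1% in later ligands. The 56.1% is the far end of Wnt16. Genes are not replicates, so no p is given for this contrast.

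**Figure D2:**
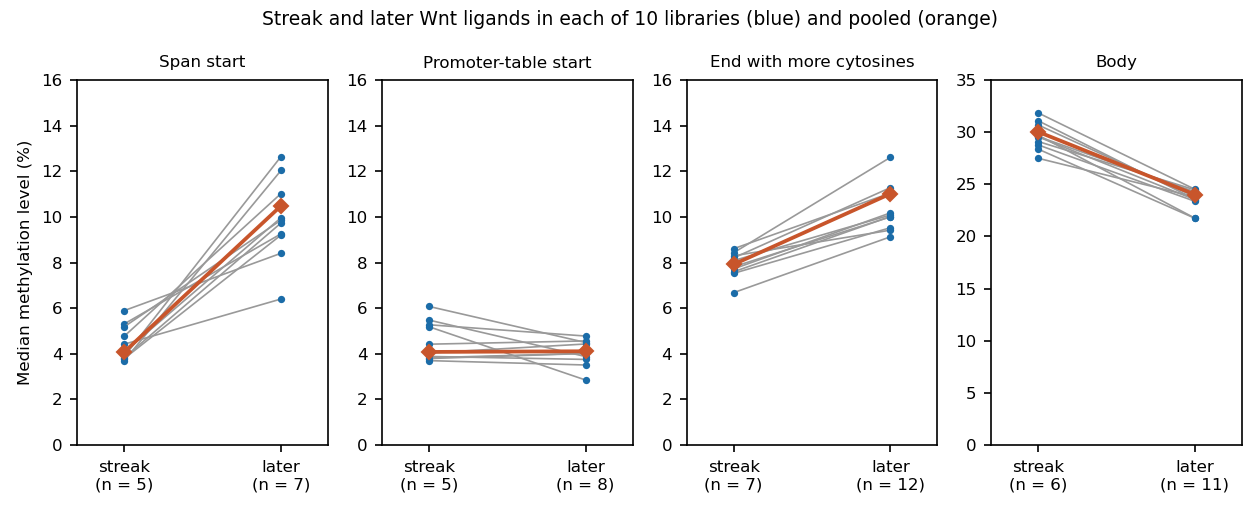
Median methylation level (y axis, %) of streak ligands (left) and later ligands (right) with 4 choices of region, the body panel on its own scale. Blue points joined by grey lines are the 10 libraries and orange diamonds the pooled medians, with the number of genes under each set. The later ligands lie higher with the span start (4.08% against 10.5% pooled), and the medians are level with the promoter-table start (4.08% against 4.11%).

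Frizzled receptors had a lower median start than ligands or inhibitors. The 6 with a known strand ran from 0.891% to 6.43%, with a median of 1.63%, and all 6 were under 10%. Fzd5 (chromosome 1, 64730558 to 64737750), a receptor of eye and yolk sac development, had 0.392%, 0.844% and 1.83% as lowest, median and highest library over 119 cytosines, and no single one of them was above 11.2%. Fzd1 (chromosome 5, 4753839 to 4758216) had 0.411%, 1.03% and 1.60%. Fzd7 (chromosome 1, 59482147 to 59486955), an early Wnt receptor of pluripotent cells, had 0.835%, 1.13% and 1.97%. These 3 overlap throughout. Fzd4 (chromosome 7, 89404366 to 89410110), a receptor of retinal blood vessels that also binds norrin, had 1.51%, 1.89% and 2.58%, and Fzd9 had 2.25%, 2.96% and 3.33%. Fzd10 (chromosome 5, 128601106 to 128604093) stood above the other 5, with 3.73%, 5.99% and 9.45%, and its range overlaps none of theirs. The 250 bases before its start were at only 0.706%, from 0 to 1.59%, so the higher level lay in other cytosines of the window. Of the 4 receptors without a strand, the less methylated measured end was at 0.930% in Fzd8, 1.795% in Fzd6 (over 3 cytosines), 2.22% in Fzd3 and 3.89% in Fzd2.

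The coreceptors had 1 low end each. Lrp6 (chromosome 6, 134446476 to 134566913) was at 0.881% at its higher end over 12 cytosines. The highest library had 1.797%, and 2 libraries were at 0, which allows up to 0.779% in the shallower of them. That limit is again too low, because 1 read is counted at each of its CpGs. Lrp5 (chromosome 19, 3584825 to 3686585) was at 13.6% at its higher end, from 12.7% to 14.8%, and at 73.1% at its lower end, from 67.8% to 78.5%. The ends of Lrp5 thus differed far beyond the spread of the libraries.

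Of the secreted inhibitors, Dkk1, which limits Wnt signals in the anterior of the embryo, had 2.83%, 4.48% and 8.57% as lowest, median and highest library at its start (chromosome 19, 30545876 to 30549496). Dkk2 (chromosome 3, 132085266 to 132180304) had 5.23%, 6.89% and 9.91% over 11 cytosines, and Sfrp2 (chromosome 3, 83765750 to 83774314) had 7.02%, 7.99% and 10.6%. These 3 overlap. Without a strand, Sfrp1 was at 4.07% at its lower end, from 3.23% to 5.21%, and Dkk3 at 17.4% at its higher end, from 13.9% to 25.9%. Sfrp4 (chromosome 13, 19623175 to 19632825) had the highest measured end of this class, 17.8% in the lowest library, 20.2% at the median and 23.7% in the highest at its lower end.

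Far ends were measured in few genes and were mostly methylated. Of 8 far ends with a strand, 1 was under 20%, against a background of 17.6%, and 1 was over 60%, against a background of 49.8%. Their median was 53.0%, against 59.8% over all protein-coding genes. Wnt11 had the highest, 77.3% over 3 cytosines. Wnt6 was the low one, with 4.02%, 5.73% and 9.44% as lowest, median and highest library over 26 cytosines, and the next lowest was Wnt8b at 28.6%. In Fzd9 the far end was at 55.2% over 34 cytosines, from 50.6% to 62.0%, and in Fzd5 at 58.8% over 5. Wnt16 was at 56.1% and Wnt9a at 41.8%. Among genes without a strand, Wnt7b had one end at 73.1% and the other at 6.91%, and Fzd6 had 62.96% and 1.795%.

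Inside the genes the median level was lower in the module than in genes in general. Bodies were bounded by the annotated span, so a listed start well inside it counts as body, as in Wnt2, Wnt6 and Wnt9b. The 32 measured bodies had a median of 28.9%, against 57.5% over 14128 bodies of protein-coding genes. Of the 32, 10 were under 20%, against a background of 9.11%, and 9 were over 60%, against a background of 44.4%. In the 19 genes with both regions, the body was above the start in 10 of 10 libraries for 18. The exception was Wnt1, where the difference was 0.195 points and positive in 5 of 10 libraries. The body exceeded the start by more than 20 points in 11 of the 19, against a background of 79.0%, and the median difference was 22.4 points in the module and 53.7 points over all genes. Other Wnt pathway genes, a list of 48 secretion factors, R-spondins, receptors, inhibitors and intracellular components, had a median of 55.9% over 44 bodies, of which 3 were under 20%.

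The lowest bodies were those of Wnt10a and Wnt10b, ligands of skin, tooth and bone. Wnt10a (chromosome 1, 74792019 to 74804176) had 4.15%, 5.93% and 8.06% as lowest, median and highest library, and all 83 body cytosines were under 20%. Wnt10b (chromosome 15, 98770712 to 98778206) had 5.83%, 7.03% and 8.596%, with 167 of 179 cytosines under 20%. Next came Fzd5 with 7.72%, 9.23% and 10.5%, Wnt1 with 8.48%, 10.9% and 12.02%, and Wnt5a with 11.3%, 13.1% and 15.1%. These bodies were as low as many starts, and in Wnt5a the body lay below the measured end in every library. Fzd8, Fzd1, Wnt6, Fzd2 and Sfrp2 made up the rest of the 10, from 13.5% in Fzd8 to 17.8% in Sfrp2. The Wnt6 body, at 15.7% over 72 cytosines, counts the 22 cytosines around its listed start, which were at 1.15%. Its level without them was not computed.

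The highest body was that of Wnt2b, whose start was among the low ones. It had 76.9%, 81.3% and 84.8% as lowest, median and highest library over 42 cytosines, 77.2 points above its start. Lrp6 and Lrp5 were at 73.5% and 72.3%, and Fzd6, Fzd3 and Fzd4 at 68.4%, 66.4% and 66.3%. Sfrp1 was at 60.3% and Wnt4 at 64.8%, from 61.2% to 68.6%, next to a start at 1.38%. Dkk2 was at 72.7% over 17 cytosines, with 47.1%, 73.3% and 88.9% as lowest, median and highest library. Its range of 41.8 points was the widest of any measured region of the module, but without library 6 it was 21.3 points, from 67.6% to 88.9%, just under that of the Wnt11 far end (21.4 points). The body was read at a mean coverage of 16.2 to 30.1 reads over the libraries.

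**Figure D3:**
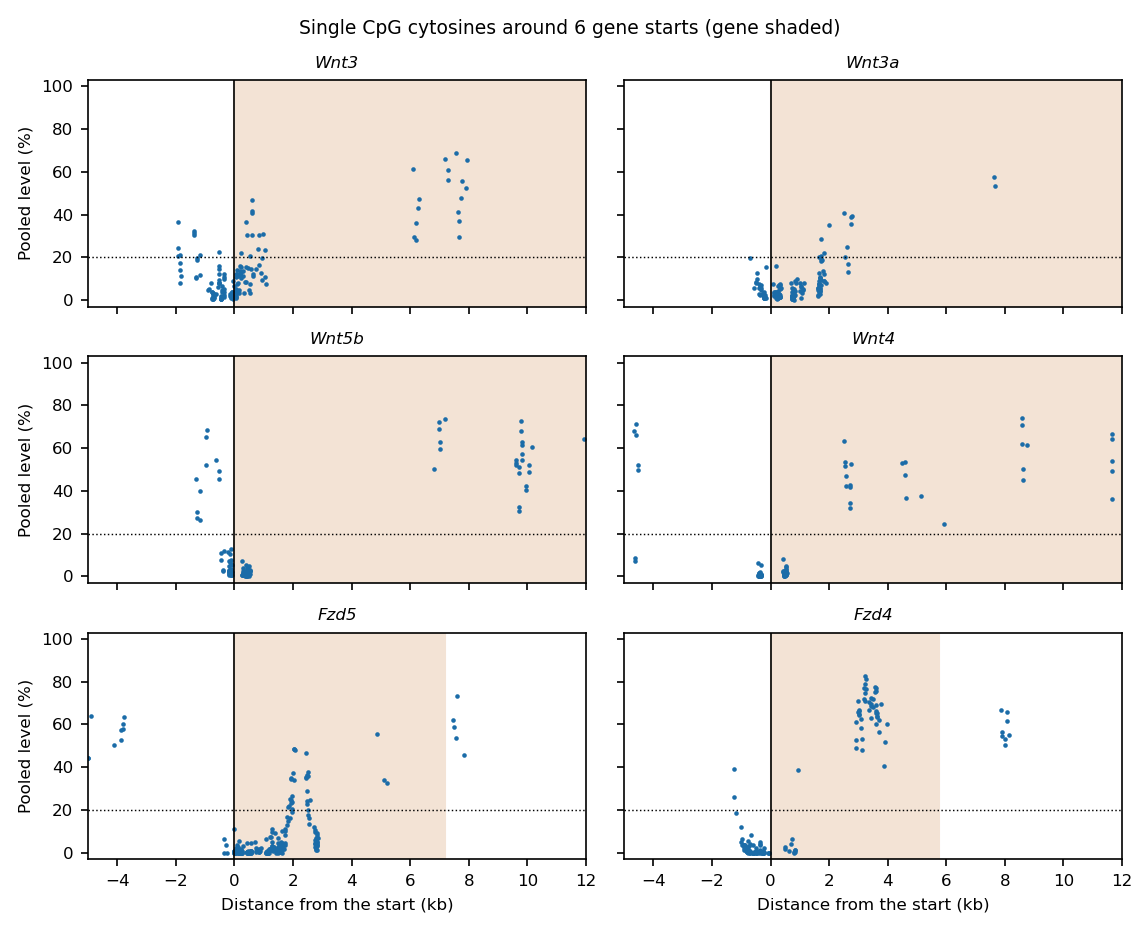
Pooled methylation level (y axis, %) of each measured cytosine against its distance from the listed gene start (x axis, kb), for 6 genes, with the gene shaded and a dotted line at 20%. In Fzd5 the 109 cytosines 1 to 2 kb inside the gene have a median of 1.86%, while in Fzd4 the body cluster lies between 40.6% and 82.5%. In Wnt3 the median is 17.98% from 500 to 1000 bp inside the gene.

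By distance from the listed start, the median of the module was below that of genes in general past the first kilobase and slightly above it within. Between 0 and 999 bp the median over genes was 3.64% in the module (20 genes) and 1.72% over all protein-coding genes. Between 1000 and 1999 bp it was 6.36% (12 genes), against 30.5%, and no library median of the module there was above 8.84%. Between 2000 and 4999 bp it was 30.9%, against 57.8%, and between 5000 and 9999 bp 50.9% (10 genes, all ligands), against 62.9%. Upstream, from 5000 to 1001 bp before the start, it was 32.6% (14 genes), against 50.8%. In the last 1000 bp before the start it was 2.99% (17 genes), against 1.98%. The median level past the first kilobase was thus lower in the module than in genes in general. These medians were not adjusted for the density of measured cytosines. At 1000 to 1999 bp the module had 498 cytosines in 12 genes, against 55159 in 3432 genes. At 1000 to 1999 bp the ligands had 6.35% over 7 genes and the receptors and inhibitors 6.36% over 5, of which the highest was at 55.2%.

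**Figure D4:**
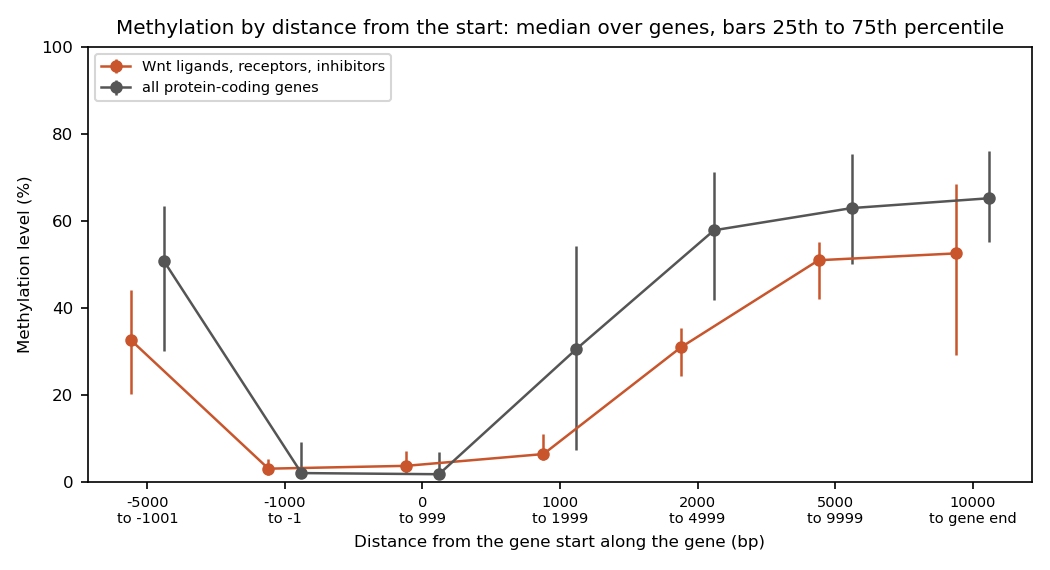
Methylation level (y axis, %) in classes of distance from the listed gene start along the gene (x axis, bp), for the Wnt module (orange) and all protein-coding genes (grey). Points are medians over genes with at least 3 cytosines in the class, bars the 25th to 75th percentile over genes. At 1000 to 1999 bp the module is at 6.36% and all genes at 30.5%, without adjustment for the density of measured cytosines.

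Unbroken runs of measured cytosines under 20% were also taken gene by gene, the longest being the one with the most cytosines. Over the 36 genes with at least 20 cytosines in the span and 1000 bp around it, the longest run had a median of 62 cytosines and 1060.5 bp, against 39 cytosines and 573 bp over 14804 protein-coding genes. It exceeded 2000 bp in 5 genes (13.9%), against a background of 6.4%. These were Fzd7, Fzd5, Wnt3a, Wnt7b and Wnt10a. Bodies of the module held a median of 64 measured cytosines, against 17 over all protein-coding genes. The runs were not adjusted for this. The run of Fzd5 had 216 cytosines over 2199 bp, at a mean of 1.75% (1.02% to 2.35% over the libraries). That of Wnt3a had 112 cytosines over 2368 bp, at 4.41%. The run of Wnt10a spanned 9362 bp, but 5602 bp of it held no measured cytosine, and that of Wnt7b held a gap of 1814 bp.

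In some ligands the longest run lay away from the 5' end. In Wnt5b it was inside the gene (chromosome 6, 119479358 to 119480667), with 138 cytosines at 1.08%. In Wnt3 it lay far inside the gene (chromosome 11, 103809899 to 103810540), with 61 cytosines at 1.81%. In Wnt11 it covered the downstream listed start (chromosome 7, 98838330 to 98839897), with 75 cytosines at 2.70%. Whether these stretches are exonic or intronic was not analysed here.

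The density of measured cytosines moved with the body levels. Over the 32 bodies, Spearman's rho between the body level and the median number of measured cytosines within 500 bp was -0.588, a description over genes that share the same libraries. Fzd1, Fzd5, Fzd2 and Wnt10b, the bodies with the most neighbours, were all under 20%. Other bodies departed from this order. Wnt4 had 60 neighbours and 64.8%, Fzd4 35 and 66.3%, Fzd6 32 and 68.4%, and Wnt2b 26 and 80.2%, while Wnt1 and Wnt6 had 23 and 22 neighbours and levels of 10.7% and 15.7%. Member bodies were denser than bodies in general, with 21.9% of their cytosines having 60 or more neighbours, against 7.16%. Within classes of density the module's body cytosines averaged 54.2% against 60.5% with 1 to 9 neighbours, 45.02% against 58.2% with 10 to 29, and 19.3% against 32.7% with 30 to 59. With 60 or more the order turned, 12.6% in the module against 9.48% in all bodies. The part of density in the low bodies was not tested beyond these classes.

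**Figure D5:**
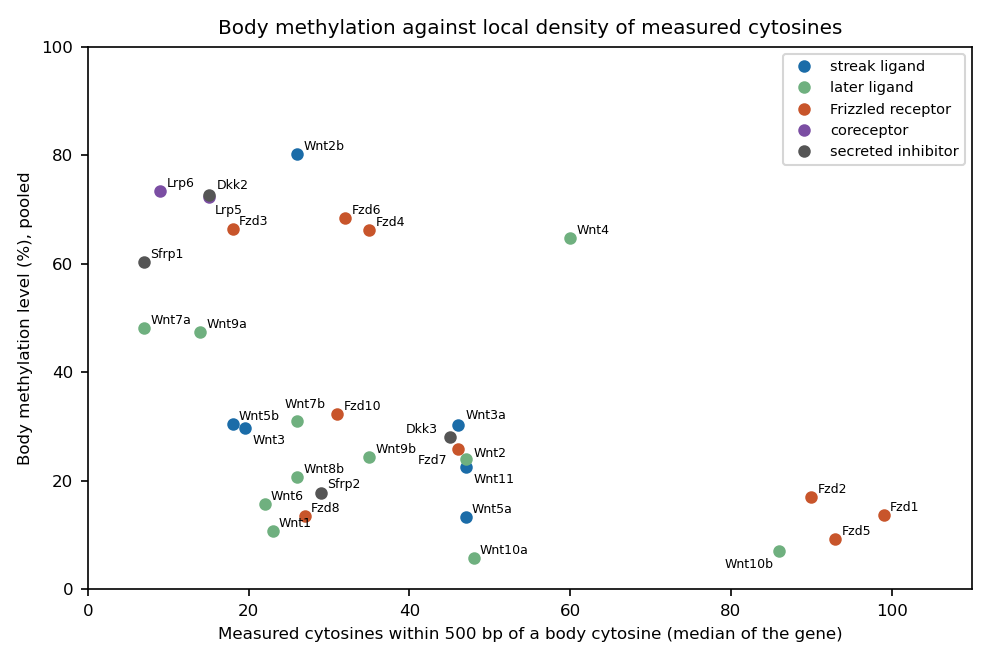
Pooled body methylation level (y axis, %) against the median number of measured cytosines within 500 bp of a body cytosine (x axis), 1 point per gene, coloured by role. Bodies with over 80 neighbours lie under 20%, while those with under 20 neighbours lie between 29.8% (Wnt3) and 73.5% (Lrp6).

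Several Wnt genes lie side by side in the genome. Wnt9b and Wnt3 overlap by their annotated spans and share 118 cytosines, at 9.26%, and between their listed starts, which are 24353 bp apart, 43 cytosines averaged 32.1% (28.1% to 35.6% over the libraries). Wnt10b and Wnt1 are transcribed away from each other, 11650 bp apart, and the 29 cytosines between them averaged 29.1%, from 26.2% to 32.3%. Between Wnt3a and Wnt9a, 16097 bp apart, 3 cytosines averaged 45.4%. The sequence between the paired genes was thus more methylated than the listed starts of these genes.

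The list of other pathway genes gave starts much like those of the module. Of 31 measured starts 27 were under 20%, against the background of 82.5%, with a median of 3.89%. The lowest were Lgr4, an R-spondin receptor, at 0.708%, Ryk, a Wnt receptor, at 0.743% and Tcf7l1, a repressor of Wnt targets, at 0.745%. The highest were Cer1, a secreted inhibitor of Wnt, Nodal and Bmp signals, at 58.6% over 8 cytosines, Axin2, a feedback inhibitor, at 42.6% over 10, and Bcl9, a beta-catenin cofactor, at 39.3% over 6. At the starts that RefSeq lists inside their spans, Axin2 was at 1.96% over 40 cytosines and Bcl9 at 1.65% over 25, while Nkd1, a Dishevelled-binding inhibitor named here after its values were seen, was at 71.1% over 4 and at 5.55% at its span start. These high starts rest on few cytosines. Porcn, on the X chromosome, was left out.

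The spread of the libraries differed by region. No start of 21 had a range over the libraries above 15 points, against a background of 8.91%. All 21 were under 20%, which leaves less room for such a range, while the background takes starts of any level. Of 32 bodies 2 had a range above 15 points, Dkk2 and Wnt7a, against a background of 12.6%. Of 8 far ends 5 had one, against a background of 36.1%, from 15.6 points in Fzd5 to 21.4 points in Wnt11, each over 3 to 13 cytosines. Among ends without a strand, the lower end of Wnt8a had a range of 19.1 points and the higher end of Fzd6 one of 15.7 points. A chi-square test of equal levels over the 10 libraries at each autosomal cytosine of 5 to 95%, with counts halved because both mates of a fragment may be counted and with Benjamini-Hochberg adjustment, called 2 of 3132 cytosines of the module at an adjusted p under 0.05. The background was 0.0867%. At an unadjusted p under 0.05 it called 232 (7.41%), against 6.5%. In the body of Fzd3, the cytosine at position 65235241 of chromosome 14 ran from 50.4% to 81.2% over the libraries (chi-square test, Benjamini-Hochberg adjusted p = 0.0248). In the body of Dkk3, the one at position 112136648 of chromosome 7 ran from 7.14% to 60.9% (chi-square test, Benjamini-Hochberg adjusted p = 0.0285). With the counts as deposited, the test called 893 of the 3132 (28.5%), against a background of 25.4%. These calls compare libraries and not the groups of the study.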

How the data were processed

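Counts per CpG cytosine (coverage, methylated and unmethylated reads) were deposited for 10 libraries, not normalized, with methylKit's column names per the file headers. Trim Galore, Bismark, methylKit and mm10 appear in the submitters' processing notes, while settings and deduplication were stated in none of the sources used here. Methylated and unmethylated counts summed to the coverage throughout. All 30 per-library columns could be tied to no sample, so the planned comparison of arsenic with control embryos, an exact permutation test, was not run. Genes, strands and promoters came from RefSeq GRCm38.p6. The members and lists were chosen with earlier results of these data known. All members may be named, with library values for streak ligands, the 5 highest and 5 lowest starts and receptors or inhibitors at 20% or more. Other pathway genes were named as the 3 lowest and 3 highest starts. The homogeneity test was tested on simulated data. Intervals cover counting error only. Python 3.11.15, numpy 2.4.6, pandas 2.3.3 and scipy 1.17.1 were used. Alternatives changed the coverage minimum to 20, the window to 500 bp, the cytosines required to 10, the weighting, the strands, the libraries pooled and the definition of a start.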

Additional observations from a re-analysis of the deposited data

Results flagged for a closer look

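In 7 of the 79 measured regions 1 library stood apart from the other 9, by a gap to its neighbour above Dixon's 95% critical share of the whole range, and chance flags about 1 region in 20. At the start of Wnt2b library 8 had 4.41%, next to 3.31% and a median of 2.95%. At the start of Wnt3a it had 5.18%, next to 4.42% and a median of 3.85%. At the start of Dkk1 it had 8.57%, next to 5.12% and a median of 4.48%. Library 8 was thus the high one at 3 starts. Library 6 had 4.16% at the higher end of Fzd3, next to 2.41%, and 25.9% at the higher end of Dkk3, next to 19.9%. In the body of Dkk2 library 6 was the low one, with 47.1% next to 67.6% and a median of 73.3%, over 17 cytosines. Without it the range over libraries was 21.3 points, against 41.8 with it. Library 5 had 7.51% at the higher end of Wnt10a, next to 5.13% and a median of 4.05%.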

How the results depend on the processing

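No paired analysis was possible because the columns carry none of the labels' replicate numbers, so a fit with a replicate block could not be made. Of 44 alternative values, 26 moved by less than the SD of the 10 libraries (for counts, by under 1.5 times), 17 by more, and 1 changed sign. The rule for counts does not use the number of genes measured. It thus scored 31 of 37 genes under 20% at the end with more cytosines as unmoved, against 21 of 21 starts as reported. A coverage minimum of 20 gave a median of 38.001% at far ends (53.0% as reported) and 26.1% in bodies (28.9%), 17.96 points for body minus start (22.4) and -3.04 points for streak minus later ligands (-6.40). Windows of 500 bp gave 3.24% at starts (4.08%), 26.96% in bodies, 20.9 points for body minus start and -1.77 points for streak minus later. Requiring 10 cytosines left 3 far ends with a median of 41.8%, and merged strands gave 31.7% in bodies. Streak minus later became 0.83 points with Wnt3, Wnt3a and Wnt8a as streak ligands and the others as later, -3.88 with these 3 against the 12 later ligands, -2.81 with means, -0.029 with listed starts, -3.10 with the end of more cytosines and -2.66 without Wnt9b. The value of -3.88, the last 3 and the median of 6.43% at the end with more cytosines were chosen after seeing the data. Counts as deposited called 893 heterogeneous cytosines in place of 2. The causes were not tested. Leaving out each library gave 3.95% to 4.13% at starts, 52.3% to 53.7% at far ends, 28.7% to 29.03% in bodies, 22.3 to 22.7 points for body minus start, -6.67 to -6.16 points for streak minus later and 21 low starts throughout, while a coverage minimum of 20 or windows of 500 bp left 19 of 20 starts under 20%. Regions with few cytosines, such as far ends, limit what the depth shows.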
